A study of Mus with 50 samples.

Results

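The 9 genes described here are liver genes whose level is known to depend on growth hormone: Cyp17a1, Cyp2b9, Cyp2b13, Cyp2a4, A1bg, Hsd3b5, Elovl3, Bcl6 and Cux2, out of 22180 named genes. They were chosen by name, and each is represented by the probe set with the highest median among those that carry its symbol alone, which for every one of the 9 was 1 probe set. A1bg is a secreted plasma protein, and Bcl6 and Cux2 are transcription factors and the other 6 are enzymes of steroid or lipid metabolism. The study took livers from 50 female mice of a C57xFVB backcross that carried the MMTV-Neu transgene, a proto-oncogene driven by a promoter active in mammary epithelium, and that the labels list with breast cancer. The mice were selected from the extremes of an ageing grade given by a multivariate model, but the end of the grade from which each mouse came is not given in the labels used here. The 50 livers were therefore treated as 1 group, each measured on 1 Affymetrix array, and the question that can be asked is how the 9 genes vary and covary from mouse to mouse.

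In rodents, growth hormone is released in separated pulses in males and nearly continuously in females. The hormone acts on hepatocytes through its receptor GHR, the kinase JAK2 and the transcription factor STAT5, and the release pattern sets which of many liver genes are high in each sex. Cyp2b9, Cyp2b13, Cyp2a4, Cyp17a1 and A1bg are known as genes higher in female mouse liver, and Hsd3b5 and Elovl3 as genes higher in male mouse liver. Bcl6, higher in males, is a repressor that can occupy STAT5 sites and keep female-biased genes low. Cux2, a homeodomain protein found mainly in female liver, is known to repress male-biased genes. Without males in the series, sex differences were not measured.

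Values are log2 signals from RMA, so a difference of 1 is a doubling of signal, and levels of different probe sets are not set against each other. The livers of 4 animals, 64, 84, 87 and 235, correlated less with the others than the remaining 46 did, and results are given with all 50 and with those 46. The hepatocyte score, the mean standardised level of 8 hepatocyte markers, was -3.92, -1.82, -0.56 and -1.23 SD in these 4 livers, and that of animal 64 was the lowest of all 50. Animal 87 had the highest T cell marker score (4.98) and animal 235 the highest Kupffer cell and macrophage score (3.68). The 8 hepatocyte markers had median levels from 11.83 to 13.46, within a table that ran from 1.45 to 13.54. The values were taken as those of whole liver, the labelled tissue, although purified cell populations are what the extraction text mentions. The labels' one running number, the animal number, was related to 3.52% of all genes over 50 livers and 5.01% over 46, and over 50 livers to none of the 9 genes (limma, adjusted p between 0.588 and 0.981). Over 46 livers A1bg was called, falling by 0.39 ± 0.12 (SE) on the log2 scale per 100 animal numbers (r = -0.440, adjusted limma p = 0.033). With the hepatocyte score as a covariate over 50 livers, A1bg (adjusted limma p = 0.0173) and Cux2 (0.0266) were called, both lower at higher numbers. The share of all genes called in that fit was 2.76%.

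**Figure D1:**
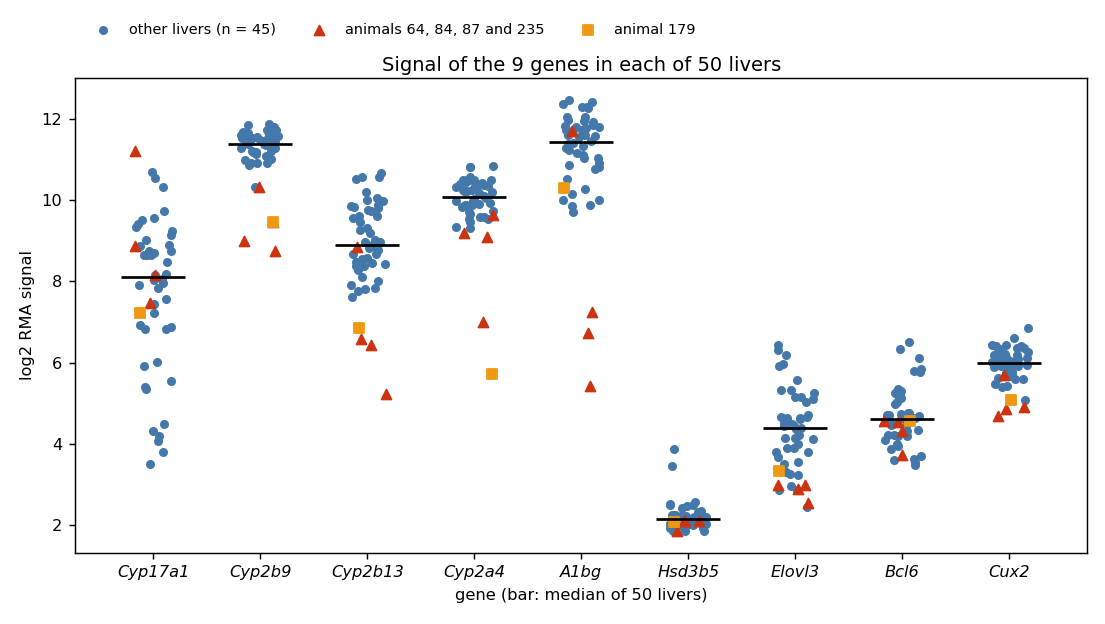
Log2 RMA signal of the 9 genes, 1 point per liver and 1 strip per gene (50 livers). Red triangles mark animals 64, 84, 87 and 235 and the orange square marks animal 179; animals 64, 84, 235 and 179 are the lowest 4 for Cyp2b9 and Cyp2b13, animals 64, 84 and 235 the lowest 3 for A1bg and Cux2, and Cyp17a1 runs from 3.51 to 11.21.

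Cyp17a1, the steroid hydroxylase and lyase on the way to androgens, had the largest SD of the 9. Its signal was lowest at 3.51 in animal 79, had a median of 8.10 and was highest at 11.21 in animal 87. Its SD of 1.89 was the 9th largest of all named genes, whose median SD was 0.21, and it was the same without the 4 livers. The livers of animals 79, 290, 223, 261 and 142 lay between 3.51 and 4.33, but the values did not split into 2 separate clusters.

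The Cyp2b and Cyp2a enzymes, cytochromes P450 that hydroxylate steroids and foreign compounds, were high in most livers with a tail of low ones. Cyp2b9 was lowest at 8.74 in animal 84, with a median of 11.37 and a highest value of 11.88 in animal 101. Cyp2b13 was lowest at 5.23 in animal 84, with a median of 8.90 and a highest value of 10.66 in animal 24. The same 4 livers, of animals 84, 64, 235 and 179, were the lowest 4 for both genes. Cyp2a4, a testosterone hydroxylase, was lowest at 5.71 in animal 179 and next at 7.01 in animal 64, with a median of 10.08 and a highest value of 10.84 in animal 91. All other livers were at or above 9.09 for Cyp2a4. Without the 4 livers the SD of Cyp2b9 was 0.41, against 0.69 with them, and that of Cyp2b13 was 0.90, against 1.13 with them.

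A1bg, a plasma glycoprotein of the immunoglobulin superfamily, was lowest at 5.43 in animal 64, with a median of 11.43 and a highest value of 12.47 in animal 187. Animals 64, 235 and 84 (5.43, 6.74 and 7.25) lay well below the next liver, animal 289 at 9.71, whereas animal 87 had 11.71. The SD of A1bg was 0.76 over 46 livers, against 1.39 over 50. In bulk liver RNA, fewer hepatocytes and less of a transcript per hepatocyte cannot be told apart.

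Hsd3b5, a ketosteroid reductase of male mouse liver, was lowest at 1.86 in animal 200, with a median of 2.15 and a highest value of 3.88 in animal 128. Only animals 128 and 292 (3.46) stood above the rest, the next liver, animal 40, being at 2.59. Its values lay near the low end of the table, which begins at 1.45, and whether a probe set was above background is not given. Its level and its lack of called pairs therefore cannot be told apart from signal at background. The SD of Hsd3b5 was 0.35, and 19.8% of all genes had a larger SD. Another 2 probe sets carry its symbol together with others and were not used. Elovl3, which elongates very long chain fatty acids, was lowest at 2.47 in animal 257, with a median of 4.39 and a highest value of 6.43 in animal 165, and its SD was 1.01 over 50 livers and 0.96 over 46.

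Of the repressors, Bcl6 was lowest at 3.48 in animal 187, with a median of 4.61 and a highest value of 6.50 in animal 113. Its SD was 0.71 over 50 livers and 0.72 over 46, and none of the 4 livers that stand apart was its lowest or highest. Cux2 was lowest at 4.70 in animal 64, with a median of 5.98 and a highest value of 6.84 in animal 114. Animals 64, 84 and 235 were its lowest 3, followed by animals 290 and 179, and its SD was 0.37 over 46 livers, against 0.45 over 50.

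Covariation among the 9 genes was tested in all 36 pairs. Each gene's level was used as the slope variable in a limma fit over all other named genes, with Benjamini-Hochberg adjustment over them, and a pair was called when its adjusted p was under 0.05 in the fits of both genes. Of the 36 pairs, 31 had a positive Pearson r and 5 a negative one. Over 50 livers 11 pairs were called, all positive, and over 46 livers 2 were called, Cyp2b9 with Cyp2b13 and Cyp2b9 with Cyp2a4. The 11 pairs were formed by 6 of the genes, Cyp2b9, Cyp2b13, Cyp2a4, A1bg, Elovl3 and Cux2.

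**Figure D2:**
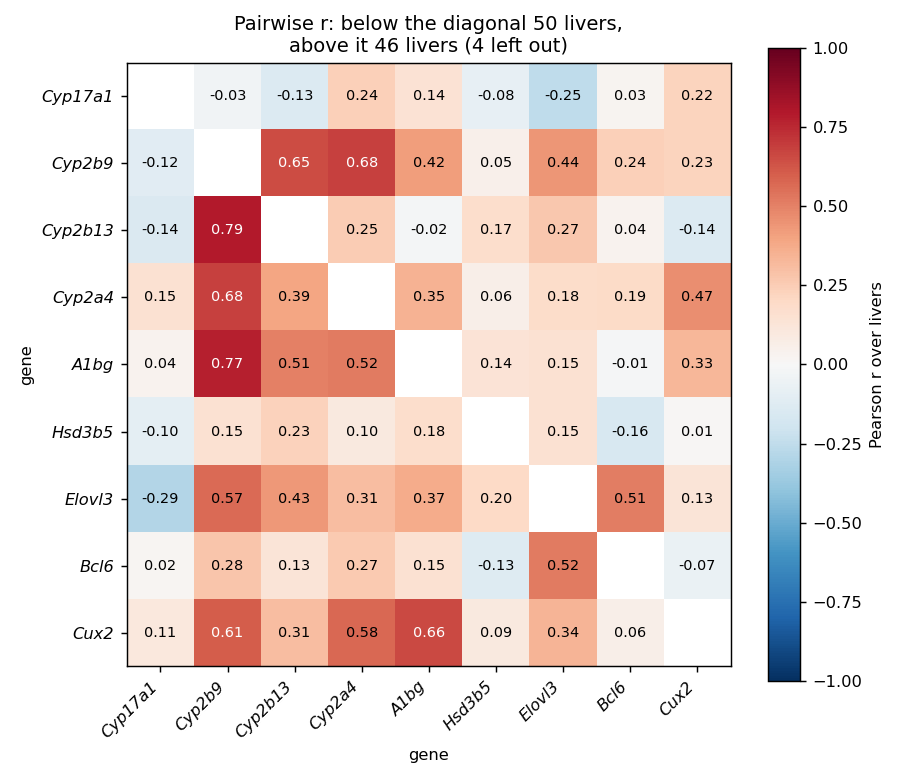
Pearson r of log2 signal for the 36 pairs of the 9 genes, over 50 livers below the diagonal and over 46 livers, without animals 64, 84, 87 and 235, above it. Cyp2b9 with Cyp2b13 stays strong on both sides (0.795 and 0.649), while A1bg with Cux2 has 0.658 below and 0.330 above.

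Counts of called genes were large for several of the 9 and have to be read against the whole table. The Cyp2b9 fit called 26.6% of all genes over 50 livers and 5.0% over 46, and among the 8 other genes of the set it called 5 and 4. The Cyp2b13 fit called 14.0% of all genes over 50 livers and 0.442% over 46, and 4 and 1 of the set. The Cyp2a4 fit called 12.9% and 1.82% of all genes, and 4 and 2 of the set.

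The A1bg fit called 25.1% of all genes over 50 livers and 3.17% over 46, and 5 and 0 of the set. The Elovl3 fit called 6.51% and 0.307% of all genes, and 3 and 1 of the set, the 1 being Bcl6. The Cux2 fit called 14.6% and 0.0406% of all genes, and 3 and 0 of the set. The fits of Cyp17a1 (0.00902% and 0.0135%), Bcl6 (0.0% and 0.0135%) and Hsd3b5 (0.0% and 0.0%) called none of the set. The Bcl6 fit over 50 livers gave 1887 genes with an unadjusted p under 0.05 and the Hsd3b5 fit 822, with none left after adjustment, on the log2 scale or on ranks.

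Cyp2b9 and Cyp2b13 had the highest r of the 36 pairs. Their Pearson r was 0.795 and their Spearman rho 0.655 over 50 livers (permutation p = 1e-05 for each, two-sided, the smallest that 100000 permutations can give). The larger of the 2 adjusted limma p-values was 2.68e-08. Cyp2b13 changed by 1.31 ± 0.14 (SE) on the log2 scale for each log2 unit of Cyp2b9. Without the 2 livers farthest from the median of Cyp2b9, animals 84 and 64, r was 0.692, and over 46 livers it was 0.649. Within the 4 stretches of animal numbers, 7 to 79, 84 to 128, 137 to 235 and 253 to 301 (8, 13, 16 and 13 livers), r was 0.817, 0.813, 0.825 and 0.797. The first stretch holds animal 64, the second animals 84 and 87, the third animal 235 and the last none of the 4, and without these livers r in the first 3 stretches was 0.785, 0.743 and 0.728. This was the 1 pair of the 36 that was called under every setting tried.

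Cyp2b9 and Cyp2a4 had r = 0.680 and rho = 0.369 (permutation p = 9e-05 and 0.00878, larger adjusted limma p = 1.441e-05). Within the 4 stretches r was 0.928, 0.701, 0.703 and 0.577, but without the 4 livers it was 0.264, -0.131 and 0.900 in the first 3, the last of these with animal 179 in it. Over 46 livers r was 0.682 but rho 0.212. Leaving out animal 179 as well, the liver with the lowest Cyp2a4, gave r = 0.259, so the linear relation over 46 livers rested on that 1 liver. Cyp2b13 and Cyp2a4 had r = 0.394 and rho = 0.087 (permutation p = 0.00779 and 0.546, larger adjusted limma p = 0.0308), and r was -0.127 without those 5 livers. Its r within the 4 stretches was 0.610, 0.196, 0.524 and 0.295, and in the first 3 without the 4 livers -0.113, -0.650 and 0.625.

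In the RefSeq gene table of assembly GRCm38.p6, Cyp2b13, Cyp2b9 and Cyp2a4 lie on 1 chromosome. Gene order and places were counted over the measured named genes only, so genes without a value that lie between them are skipped. Counted so, Cyp2b13 is next to Cyp2b9, and Cyp2a4 is 2 places from Cyp2b9. Of the 12 measured genes on each side of Cyp2b9, 11 of 24 were called in its fit over 50 livers (26.6% of all genes). Over 46 livers 8 of 24 were called (5.0% of all genes). The 8 were Cyp2b13, Cyp2a4, Cyp2b10, Cyp2g1, Cyp2a5, Cyp2a22, Cyp2a12 and, not a P450, Bckdha, a subunit of branched-chain keto acid dehydrogenase. Around Cyp2a4, 11 of 24 neighbours were called over 50 livers (12.9% of all genes) and 6 of 24 over 46 (1.82%). Around Cyp2b13, 7 of 24 were called over 50 livers (14.0% of all genes) and 1 of 24 over 46 (0.442%), Cyp2b9. Some calls over 50 livers were negative. These were B9d2, Tgfb1 and Hnrnpul1 with Cyp2b9 (r = -0.519, -0.453 and -0.520) and B9d2, Ccdc97 and Hnrnpul1 with Cyp2a4 (-0.427, -0.417 and -0.517). Hnrnpul1 was also negative with Cyp2b13 (-0.436). The other calls, and all those over 46 livers, were positive.

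Cyp2b10, the phenobarbital-inducible P450 2 places from Cyp2b9, had r = 0.590 with Cyp2b9 (adjusted limma p = 4.74e-05) and 0.452 over 46 livers (adjusted p = 0.0258). With Cyp2b13 its r was 0.334 (adjusted p = 0.0779), and 0.073 over 46 livers. Cyp2a5, the closest paralog of Cyp2a4, had r = 0.651 and rho = 0.807 with Cyp2a4 (adjusted limma p = 4.579e-05), and r was between 0.703 and 0.727 within the 4 stretches. The Cyp2a5 signal was low, from 2.47 to 4.97 with a median of 3.41, below the median level of all genes (3.61). Whether it was above background is not given. These genes are close paralogs, and how far a probe set responds to a paralog's RNA was not tested. The neighbours and the Cyp2 genes outside the set were named after their values were seen.

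**Figure D3:**
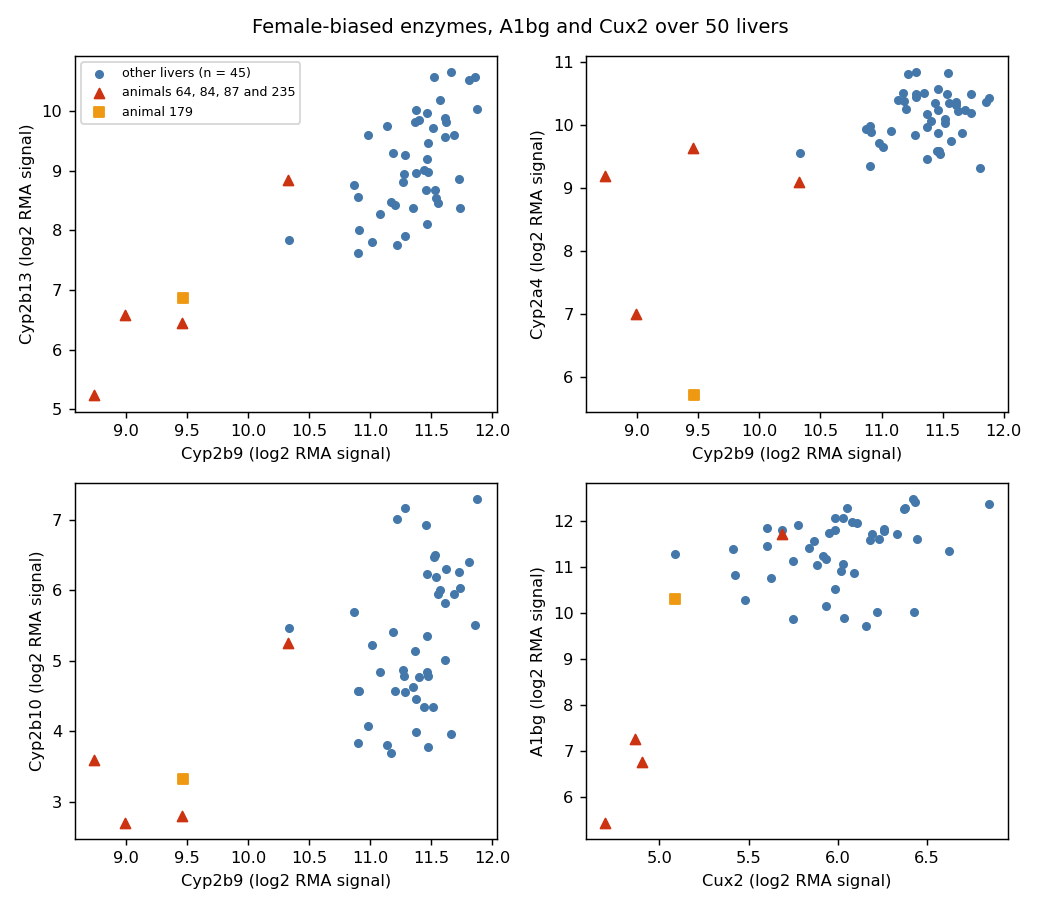
Log2 RMA signal of Cyp2b9 against Cyp2b13, Cyp2a4 and Cyp2b10, and of Cux2 against A1bg, 1 point per liver, with the 4 livers that stand apart and animal 179 marked. The Cyp2b9 and Cyp2b13 points form a slope with and without the marked livers, whereas for Cyp2a4 animal 179 lies alone at 5.71.

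A1bg followed Cyp2b9 over 50 livers, with r = 0.774 and rho = 0.472 (permutation p = 1e-05 and 0.00053, larger adjusted limma p = 2.057e-09). Within the 4 stretches r was 0.955, 0.870, 0.704 and 0.300, and in the first 3 without the 4 livers 0.235, 0.329 and 0.399. Over 46 livers r was 0.417, with adjusted p = 0.0492 in the Cyp2b9 fit and 0.0671 in the A1bg fit, so the pair was no longer called. A1bg and Cyp2b13 had r = 0.507 over 50 livers (rho = 0.140, larger adjusted limma p = 0.00309) and -0.017 over 46, so that relation rested on the 4 livers. Its r within the 4 stretches was 0.681, 0.748, 0.417 and 0.256, and in the first 3 without the 4 livers 0.129, 0.038 and -0.130. A1bg and Cyp2a4 had r = 0.517 and rho = 0.509 (permutation p = 0.00334 and 0.00021, larger adjusted limma p = 0.0026), and r = 0.351 over 46 livers. Its r within the 4 stretches was 0.953, 0.591, 0.261 and 0.349, and in the first 3 without the 4 livers 0.368, 0.418 and 0.438.

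Elovl3, although known as male-biased, was positively related to the female-biased Cyp2b9. Their r was 0.568 and their rho 0.509 (permutation p = 3e-05 and 0.00023, larger adjusted limma p = 0.00215), and r was 0.576, 0.630, 0.527 and 0.717 within the 4 stretches (0.349, 0.398 and 0.440 in the first 3 without the 4 livers). Over 46 livers r was 0.443, with adjusted p = 0.0308 in the Cyp2b9 fit and 0.139 in the Elovl3 fit. Elovl3 and Cyp2b13 had r = 0.434 and rho = 0.350 (larger adjusted limma p = 0.0263), r = 0.273 over 46 livers, and 0.333, 0.549, 0.402 and 0.535 within the stretches (-0.016, 0.389 and 0.279 in the first 3 without the 4 livers).

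Hsd3b5 was called with none of the other genes, and its r with them lay between -0.130 and 0.228. With Elovl3, the other gene known as male-biased, r was 0.197 and rho 0.433 (permutation p = 0.172 and 0.00201, adjusted limma p = 0.999 in the Hsd3b5 fit). Without animals 128 and 292, the 2 high livers, r was 0.486.

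Cyp17a1, like Hsd3b5 and Bcl6, was in no called pair. Its r with the other 8 ran from -0.294 for Elovl3 to 0.152 for Cyp2a4. With Cyp2a4 rho was 0.287, and r was 0.239 over 46 livers and 0.412 without animal 179 too. Elovl3 lies 17 places from Cyp17a1 on the same chromosome, and its relation to Cyp17a1 had permutation p = 0.0384 for r before adjustment and adjusted limma p = 0.961 in the Cyp17a1 fit. The livers with low Cyp17a1 were not those with low Cyp2b9: animal 79, lowest for Cyp17a1, had 11.80 for Cyp2b9, and animal 87, highest for Cyp17a1, had 10.32.

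The Cyp17a1 fit called 2 genes of the whole table, As3mt and Slc35g1. As3mt, which methylates arsenic and lies 2 places from Cyp17a1 with Borcs7 between them, was lowest at 5.63 in animal 290, with a median of 7.20 and a highest value of 8.88 in animal 87. Animals 290 and 87 were also the second lowest and the highest for Cyp17a1. The r of the pair was 0.787 and rho 0.768 (permutation p = 1e-05 for each, adjusted limma p = 6.812e-08). As3mt changed by 0.278 ± 0.031 (SE) on the log2 scale per log2 unit of Cyp17a1.

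The As3mt relation kept its size where livers were left out. It was 0.737 without animals 79 and 290, the 2 farthest from the median of Cyp17a1, and 0.795 over 46 livers. Within the 4 stretches r was 0.638, 0.905, 0.592 and 0.894, and in the first 3 without the 4 livers 0.766, 0.890 and 0.594. Of the 24 neighbours of Cyp17a1, As3mt was the 1 called, and the second highest r was 0.446, for Borcs7 (adjusted limma p = 0.709). Slc35g1, a solute carrier 130 places away on the same chromosome, had r = 0.588 (adjusted limma p = 0.0429) and 0.614 over 46 livers (adjusted p = 0.018). On ranks, and with the stretches of animal numbers as a block, the Cyp17a1 fit called 1 gene, As3mt, and not Slc35g1. Over 46 livers Lhpp, a phosphatase gene on another chromosome, was called too (r = 0.616, adjusted p = 0.018).

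**Figure D4:**
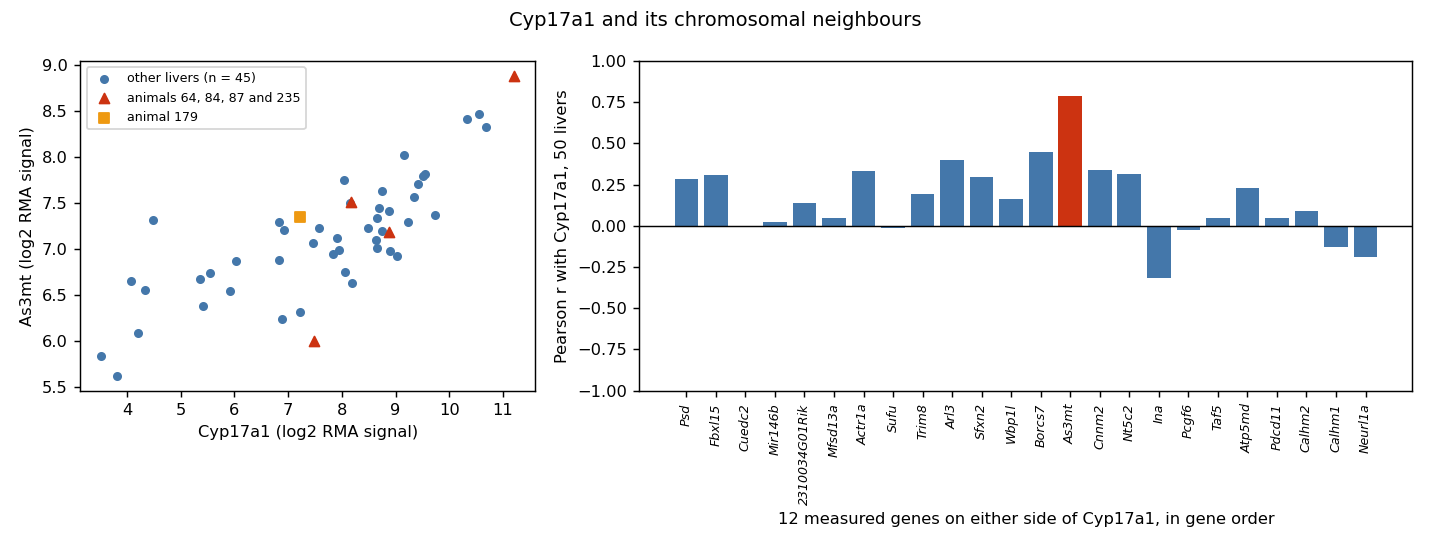
Left, log2 RMA signal of As3mt against Cyp17a1, 1 point per liver (50 livers). Right, Pearson r of Cyp17a1 with the 12 measured genes on each side of it in chromosome order. The bar of As3mt reaches 0.787 and the next highest 0.446.

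Bcl6 was not called with any other gene of the set. Its highest r was with Elovl3, at 0.522 with rho = 0.475 (permutation p = 0.00012 and 0.00064). That pair passed in the Elovl3 fit (adjusted limma p = 0.0057) but not in the Bcl6 fit (0.173), and r was 0.512 over 46 livers. Within the 4 stretches r was 0.346, 0.451, 0.717 and 0.419, and in the first 3 without the 4 livers 0.083, 0.412 and 0.751. With the female-biased genes its r was positive, at 0.277 for Cyp2b9, 0.266 for Cyp2a4, 0.151 for A1bg, 0.131 for Cyp2b13 and 0.017 for Cyp17a1. In the same order rho was 0.299, 0.392, 0.103, 0.083 and 0.082. Permutation p for rho was 0.0357 for Cyp2b9 and 0.00509 for Cyp2a4, before adjustment. Over 46 livers these 2 rho were 0.252 and 0.364. With Cux2 the r of Bcl6 was 0.061.

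Among growth hormone signalling genes, the lowest r with Bcl6 was that of a feedback inhibitor. Cish, which encodes a STAT5-induced inhibitor of cytokine receptors, was lowest at 3.88 in animal 290, with a median of 4.66 and a highest value of 5.76 in animal 187. Animal 187 was also the liver with the lowest Bcl6. Cish and Bcl6 had r = -0.535 and rho = -0.515 over 50 livers (permutation p = 7e-05 and 0.00016), which did not pass across all genes (adjusted limma p = 0.173). Over 46 livers r was -0.608 and the adjusted limma p 0.0447. Within the 4 stretches r was 0.031, -0.674, -0.746 and -0.366. Without the 4 livers it was -0.403, -0.785 and -0.759 in the first 3, so the value near 0 in the first stretch rested on animal 64.

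Of the other genes of the list of 14, over 50 livers Onecut1 (HNF6, a transcription factor of hepatocytes) had r = -0.460 with Bcl6, Socs2 -0.335 and Socs3 -0.314, the last 2 being feedback inhibitors of cytokine signalling. Over 46 livers the 3 values were -0.565, -0.434 and -0.349 (adjusted limma p = 0.0776, 0.352 and 0.565). The remaining r over 50 livers were 0.274 for Ghr, 0.256 for Stat5b, 0.227 for Stat5a, 0.225 for Hnf4a, 0.215 for Igfals, 0.084 for Igf1, 0.022 for Igfbp3, 0.021 for Socs1, -0.075 for Igfbp1 and -0.125 for Jak2. The list had 0 of 14 called over 50 livers and 1 over 46, and its median r was 0.021 over 50 livers, against -0.009 over all genes. Over 46 livers the Bcl6 fit called 3 genes in all, Cish, P4ha1, a collagen prolyl hydroxylase subunit (r = 0.647, adjusted p = 0.0113), and Arhgef3 (r = 0.602, adjusted p = 0.045).

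**Figure D5:**
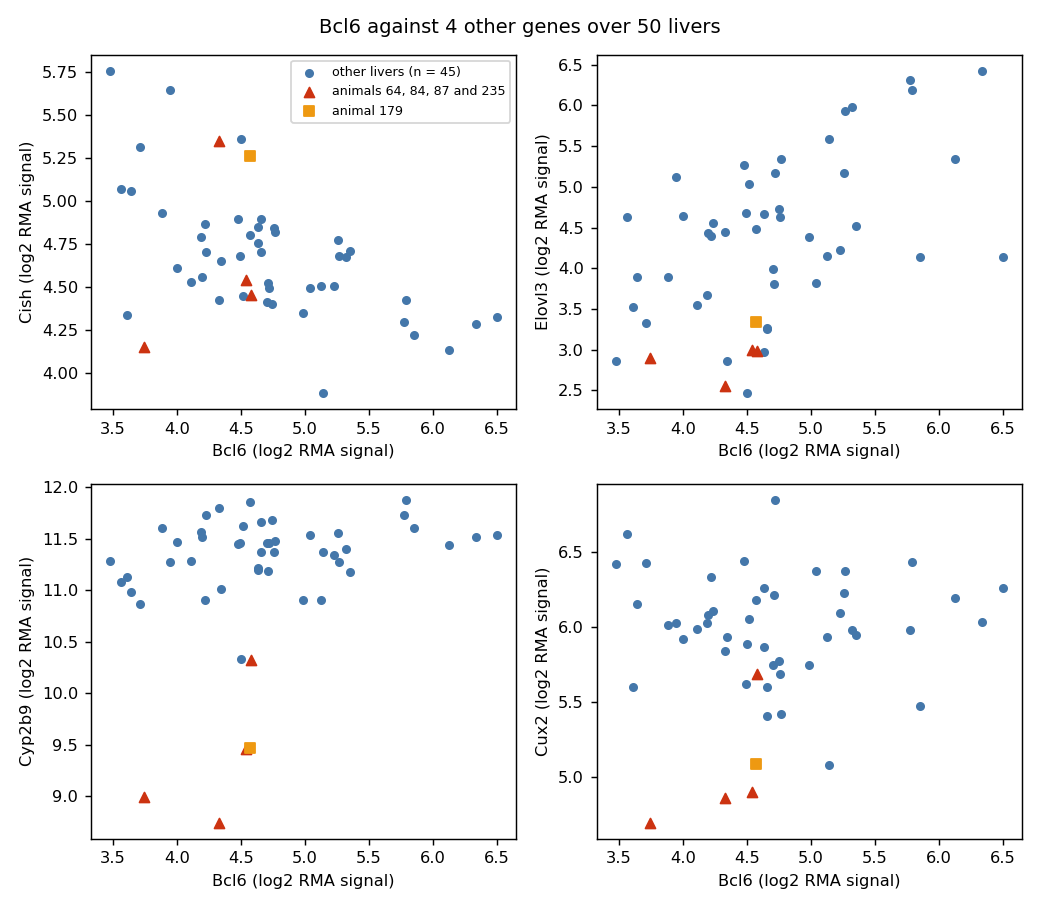
Log2 RMA signal of Bcl6 against Cish, Elovl3, Cyp2b9 and Cux2, 1 point per liver (50 livers, marked livers as in the plot of levels). Pearson r with Bcl6 is -0.535 for Cish, 0.522 for Elovl3, 0.277 for Cyp2b9 and 0.061 for Cux2.

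Cux2 was called with 3 female-biased genes over 50 livers, Cyp2b9, Cyp2a4 and A1bg. With A1bg r was 0.658 and rho 0.470 (permutation p = 2e-05 and 0.00075, larger adjusted limma p = 4.797e-05). It was 0.482 without animals 64 and 235 and 0.330 over 46 livers, and within the 4 stretches it was 0.910, 0.830, 0.608 and -0.224. In the first 3 stretches without the 4 livers it was 0.043, 0.472 and 0.332. With Cyp2a4 r was 0.578 and rho 0.497 (larger adjusted limma p = 0.000645). The r with Cyp2a4 was 0.466 over 46 livers and 0.303 when animal 179 was left out too. Within the stretches it was 0.954, 0.648, 0.522 and -0.0009 (0.674, 0.018 and 0.611 in the first 3 without the 4 livers). With Cyp2b9 r was 0.609 but rho 0.220 (permutation p = 4e-05 and 0.123, larger adjusted limma p = 0.000227). It was 0.407 without animals 84 and 64, 0.225 over 46 livers and -0.044 when animal 179 was left out too, and 0.878, 0.829, 0.594 and -0.268 within the stretches (0.043, -0.072 and 0.378 in the first 3 without the 4 livers). With the male-biased Elovl3 and Hsd3b5, r was 0.341 and 0.094.

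Over 50 livers, Cux2 was positively related to most of the other female-biased genes and to a smaller part of the male-biased ones. Of 18 measured female-biased genes 14 were called positive and 0 negative, with Slc22a26 (r = 0.676), Abcd2 (0.664) and Acot3 (0.659) having the smallest p, all genes of transport or fatty acid metabolism. Of 21 male-biased genes 5 were called positive, led by Ugt2b1 (0.647), Slco1a1 (0.628) and Cyp7b1 (0.509), and 1 negative, Cyp2d9 (-0.365). The share called over all genes in this fit was 14.6%. Over 46 livers 0 of either list was called, with median r 0.324 for the female-biased and -0.004 for the male-biased list, against -0.007 over all genes.

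In the growth hormone signalling list, 7 of 14 genes were called positive with Cux2 over 50 livers, Igfals (0.670), Ghr (0.623), Igf1 (0.572), Socs2 (0.471), Hnf4a (0.437), Stat5b (0.431) and Onecut1 (0.373), and 1 negative, Jak2 (-0.496). Those not called ran from -0.057 for Igfbp1, -0.052 for Socs3, -0.051 for Igfbp3 and -0.017 for Stat5a to 0.080 for Socs1 and 0.161 for Cish. Over 46 livers none of the 14 was called, and Socs2 had the highest r (0.413, adjusted limma p = 0.277). The Cux2 fit over 46 livers called 9 genes, positive for Cyp3a25, Mir143, Upp2, Klb, Ngef, Vwce and Tns2 and negative for Olfr171 and Trim27. Klb, the co-receptor of fibroblast growth factor hormones in liver, had an adjusted limma p of 0.0298.

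Some cell type markers were called with Cux2 over 50 livers. Of 8 hepatocyte markers 5 were called positive, led by Serpinc1 (0.651), Apob (0.621) and F2 (0.533), of 9 stellate cell and fibroblast markers 3 were called negative (Col1a1, Col1a2 and Col3a1), and of 9 neutrophil markers 1, S100a9, against 14.6% of all genes. None of the markers of Kupffer cells and macrophages, T cells, B cells, sinusoidal endothelium, cholangiocytes, mammary epithelium, pancreatic acini or adipocytes was called. Over 46 livers 0 markers of any of these lists was called. With the hepatocyte score as a covariate, the Cux2 fit called 19 genes over 50 livers, against 3231 without it. The count was also low on ranks (2) and with the first array component as a covariate (0). The score is itself made of hepatocyte transcripts, and the part of hepatocyte share in the relation was not tested.

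Genes of the wider female-biased list went with Cyp2b9, Cyp2a4 and A1bg in both sets of livers. Over 50 livers, 16 of the 18 listed genes were called positive with Cyp2b9, 14 with Cyp2b13, 14 with Cyp2a4, 16 with A1bg and 9 with Elovl3. Over 46 livers the counts were 9 for Cyp2b9, 0 for Cyp2b13, 9 for Cyp2a4, 8 for A1bg and 0 for Elovl3. The shares over all genes in these fits, in the same order, were 26.6%, 14.0%, 12.9%, 25.1% and 6.51% over 50 livers. Over 46 livers they were 5.0%, 0.442%, 1.82%, 3.17% and 0.307%. No listed gene was called negative. Median r of the list with Cyp2b9 was 0.421 over 46 livers, against -0.015 over all genes, and with Bcl6 0.107, against -0.006. The fits of Cyp17a1, Bcl6 and Hsd3b5 called 0 of 18 in either set of livers.

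With Cyp2b9, the male-biased list gave fewer positive calls than the female-biased list in both sets of livers. Of its 21 genes, 9 were called positive and 1 negative with Cyp2b9 over 50 livers, and 6 positive and 1 negative over 46. Over 50 livers the Cyp2b13 fit called 8 positive and 1 negative, the Cyp2a4 fit 7 and 1, and the A1bg fit 8 and 1. Over 46 livers these fits called 1 and 0, 3 and 1, and 2 and 0. The shares over all genes are those given for the female-biased list. With Elovl3, 5 were called positive over 50 livers and 2 over 46, where the female-biased list had 0. These 2 were Mup3, a major urinary protein (r = 0.525, adjusted limma p = 0.035), and Ugt2b1, a glucuronosyltransferase (r = 0.516, adjusted p = 0.0492). Both were named after their values were seen.

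Of the 14 growth hormone signalling genes, the Cyp2b9 fit called 5 positive and 2 negative over 50 livers (26.6% of all genes) and 2 positive and 3 negative over 46 (5.0% of all genes). The list's median r was 0.130 over 50 livers and -0.113 over 46, against 0.027 and -0.015 over all genes. The 4 genes given next were named after their values were seen. Igfals, which encodes the acid-labile subunit that carries IGF1 in blood, had r = 0.899 with Cyp2b9 over 50 livers (adjusted limma p = 3.245e-16) and 0.689 over 46 (adjusted p = 2.226e-05). Ghr had r = 0.780 over 50 livers and 0.605 over 46. Igf1 itself had r = 0.573 over 50 livers but -0.146 over 46 (adjusted p = 0.714). Socs3 was negative with Cyp2b9, at -0.450 over 50 livers and -0.686 over 46.

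Acute phase genes, which hepatocytes make in response to inflammatory cytokines, were called negative with the P450 genes more often over 46 livers than over 50. Of 13 measured genes, the Cyp2b9 fit called 3 negative over 50 livers and 10 negative over 46, the Cyp2b13 fit 4 and 8, the Cyp2a4 fit 2 and 8, and the A1bg fit 0 and 3, with none positive. The shares over all genes in these 4 fits were 26.6%, 14.0%, 12.9% and 25.1% over 50 livers and 5.0%, 0.442%, 1.82% and 3.17% over 46. Animal 179, lowest for Cyp2a4 and among the lowest 4 for Cyp2b9 and Cyp2b13, had the highest acute phase score of the 50 livers (2.57 SD) and the third lowest hepatocyte score (-1.23 SD). It is among the 46 livers, whereas animal 64, with the lowest acute phase score (-1.85 SD), is not. Leaving out animal 179 too took the genes called from 98 to 12 with Cyp2b13 and from 403 to 142 with Cyp2a4. With Cyp2b9 they went from 1110 to 1597 and with A1bg from 704 to 714. How far the acute phase counts over 46 livers rest on animal 179 was not tested. The haptoglobin gene Hp, for example, had r = -0.693 with Cyp2b9 over 46 livers. The fits of Bcl6, Cux2, Cyp17a1, Hsd3b5 and Elovl3 called 0 of 13 in either set.

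Neutrophil, stellate cell and hepatocyte markers were called with several of the female-biased genes, though 0 of any list with Cyp17a1. The shares of all genes given above for each fit apply to these counts. Of 9 neutrophil markers, whose medians were 2.49 to 3.65, the Cyp2b9 fit called 7 negative over 50 livers and 6 over 46, the Cyp2b13 fit 7 and 1, the Cyp2a4 fit 5 and 1, the A1bg fit 7 and 1, and the Elovl3 fit 4 and 0. Of 9 stellate cell and fibroblast markers, the Cyp2b9 fit called 5 negative, the Cyp2b13 fit 2, the Cyp2a4 fit 3, the A1bg fit 3 and the Elovl3 fit 1 over 50 livers, and none over 46. Of 8 sinusoidal endothelial markers, the Cyp2b9 fit called 1 positive and 2 negative over 50 livers and 0 over 46, the Cyp2b13 fit 1 positive and 1 negative over 50 and 0 over 46, and the A1bg fit 3 negative in either set. No T cell, B cell or pancreatic acinar marker was called in any of these fits. Kupffer cell, cholangiocyte, mammary and adipocyte markers were called at most 2 per list and fit. Of the 8 hepatocyte markers, the counts called positive were 5 and 1 with Cyp2b9, 7 and 2 with Cyp2a4, 5 and 0 with A1bg, 4 and 0 with Cyp2b13 and 1 and 0 with Elovl3. With the hepatocyte score as a covariate, 3 of the 36 pairs were called over 50 livers. The part of cell composition in the relations was not tested.

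The genes most like each of the 9 over 50 livers, other members left out, were ranked by r among genes at or above the median level. They were As3mt, Slc35g1 and Bnip3 for Cyp17a1 (0.787, 0.588 and 0.555), Mreg, Otc and Gstt1 for Cyp2b9 (0.918, 0.914 and 0.904), Rnf170, Car8 and Mreg for Cyp2b13 (0.786, 0.774 and 0.750), and Hao2, Hsd11b1 and Akr1c14 for Cyp2a4 (0.852, 0.781 and 0.770). Hao2, a peroxisomal hydroxy acid oxidase, had r = 0.511 with Cyp2a4 without animals 179 and 64.

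For A1bg they were Slc22a28, Hacl1 and Ugt2b34 (0.877, 0.873 and 0.870), for Elovl3 Bdh1, Creb3l3 and Rfx4 (0.721, 0.720 and 0.715), and for Cux2 Klb, Hacl1 and Upp2 (0.746, 0.740 and 0.737). Creb3l3, a transcription factor of fasting metabolism, kept r = 0.717 with Elovl3 over 46 livers. For Bcl6 they were Tgoln1, Hspa1b and Sult5a1 (0.574, 0.551 and 0.547) and for Hsd3b5 Nat8f7, Camkk2 and Gm15091 (0.447, 0.419 and 0.399), and of these 6 none passed the test over all genes. Over 46 livers the r of Mreg with Cyp2b9 was 0.757 and that of Slc22a28 with A1bg 0.646.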

How the data were processed

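Total RNA of 50 livers, 1 Affymetrix array each, was measured from 100 ng with the WT Plus kit per the labels' protocols. The authors deposited log2 signals. The submitters' processing notes name RMA and version 1.4.1 of the Affymetrix Expression Console. RMA subtracts background, quantile-normalises arrays and summarises probes, which removes differences in total RNA between livers. Array medians lay between 3.27 and 3.34. Precision is limited by how many arrays there are. Of 41345 probe sets, 23521 carried 1 symbol, 1814 several and 16010 none in the platform annotation. Probe sets with several symbols named no gene. The probe set with the highest median stood for a gene. The RefSeq table (GRCm38.p6) gave gene order only, and places were counted over the measured named genes.

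The animal numbers differ, so the livers were taken as separate mice. Fits used limma 3.58.1 (lmFit and eBayes with trend) in R 4.3.3 and were tested on simulated data. Permutation tests used 100000 draws in Python 3.11.15 with scipy 1.17.1. A liver was set apart where its median r with all other livers, over 11090 genes, was below the lower quartile by over 3 times the interquartile range. Separate clusters were sought with a 2-component normal mixture, and no gene of the set had them. The genes, lists and tests were chosen with earlier results of these data known. Named genes are all 9, every growth hormone signalling gene, in the Bcl6 and Cux2 fits up to 3 genes per list and direction with the smallest p, and 3 most alike genes each; others were named after their values were seen. Gene sequences were not analysed here.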

Additional observations from a re-analysis of the deposited data

How the results depend on the processing

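Alternatives were 9 planned ones (a level filter, the mean of probe sets, array centring, ranks, leaving out the 4 livers, stretches of animal numbers as a block, and the first array component, the acute phase score or the hepatocyte score as a covariate) and 1 chosen after seeing the data, leaving out animal 179 as well. The count of called pairs, 11, became 4 on ranks, 2 without the 4 livers, 1 with the first array component, 3 with the hepatocyte score and 1 without the 5 livers. The count of genes related to Bcl6, 0, became 3 without the 4 livers and 2 without the 5. The count related to Cux2, 3231, became 2 on ranks, 9 without the 4 livers, 0 with the first array component (1381 at an unadjusted p under 0.05), 19 with the hepatocyte score and 2 without the 5 livers. Of 19 single relations followed, 3 turned in sign. Cyp2b13 with A1bg had r = -0.0167 without the 4 livers and -0.100 without the 5. Without the 5, Cyp2b9 with Cux2 had -0.0438 and Cyp2b13 with Cyp2a4 -0.127. More relations kept their sign but lost an adjusted limma p under 0.05. They were 10 with the first array component, 8 with the hepatocyte score, 1 with the acute phase score and 7 on ranks. Without the 4 livers they were 8 and without the 5 they were 7. In these last 2 settings Bcl6 with Cish came under 0.05. The cause was not tested. The filter, the mean of probe sets, centring and the block moved none of the 19 across the threshold or in sign. Hsd3b5 fell below the level filter, which left 28 of 36 pairs there. No paired analysis was possible because all livers are in 1 group.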
